A study of Ovis aries with 6 samples.

Results

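TGFB1 and BMP4 encode secreted growth factors of the same superfamily, and both have been linked to the hair cycle. Their transcripts were compared in the skin of a fine-wooled and a coarse-wooled sheep breed. A probe was taken as belonging to either gene when the array assigned it the sheep RefSeq mRNA of that gene. This gave 2 of the 476 genes named through RefSeq on the array and 3 of its 15008 probes: A_70_P051421 for TGFB1, and A_70_P030206 and A_70_P030207 for BMP4. Each probe had 1 spot per array, and each was well above background on all 6 arrays. The choice of genes used no measured value.

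RNA came from full-thickness skin of the body side, and each animal was hybridised to its own 1-colour (Cy3) Agilent sheep array. The groups were 3 Aohan fine wool sheep, a breed with fine wool, and 3 small tail Han sheep, a breed with coarse wool, all aged 12 months, pen-reared and sampled under a local anaesthetic. Each breed was represented by 1 ram and 2 ewes, but no label ties a sex to an animal. The 3 animals of a breed had the same sire, and the 2 breeds were scanned in separate sessions, so breed, sire family and scan session cannot be told apart. All skin was taken at 1 time of year, which the study places in the growth phase of the follicle, so no change over the cycle was measured.

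The wool follicle passes through growth (anagen), regression (catagen) and rest (telogen). Both growth factors are made as precursors. The mature forms bind paired type I and type II serine/threonine kinase receptors, which phosphorylate SMAD proteins that enter the nucleus. TGF-β1 is stored in the matrix in a latent complex and needs release, by integrins or proteases among others; its receptors act mainly through SMAD2 and SMAD3. In mice it is known as a signal that promotes catagen. BMP4 acts mainly through SMAD1, SMAD5 and SMAD9 and is held in check by secreted antagonists such as noggin. In mice, BMP signals in the dermis help to keep follicle stem cells at rest, and BMP signalling in the growing follicle is needed for hair shaft differentiation.

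TGFB1 was higher in Aohan skin than in small tail Han skin by 1.76-fold. The values below are log2 intensities relative to the 75th percentile of all non-control probes of the same array, so a probe at 0 was as bright as that percentile. TGFB1 stood at -1.04, -0.63 and -1.09 in Aohan sheep 1, 2 and 3, against -1.53, -1.77 and -1.91 in small tail Han sheep 1, 2 and 3. The highest Aohan value was that of sheep 2, and the breeds did not overlap, with a gap of 0.45 between the lowest Aohan and the highest small tail Han value. The means were -0.92 ± 0.25 in Aohan and -1.74 ± 0.19 in small tail Han skin (SD, n = 3 each). The difference on the log2 scale was 0.82 (SE 0.18, 95% interval 0.40 to 1.24), with an adjusted p of 0.0192 from limma with Benjamini-Hochberg adjustment over 12480 tested probes. In whole skin, fewer cells of a type and less RNA per cell cannot be told apart.

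The TGFB1 call has to be read against how many probes passed. Of all tested probes, 15.2% passed in either direction, 7.57% higher and 7.6% lower in Aohan skin, and 34.2% had breed values that did not overlap. The TGFB1 difference was larger in size than that of 84.9% of tested probes, and 8.65% of them had a lower p. The call was lost without small tail Han sheep 2 (adjusted p = 0.0831) or 3 (adjusted p = 0.0842), at differences of 0.80 and 0.74.

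**Figure D1:**
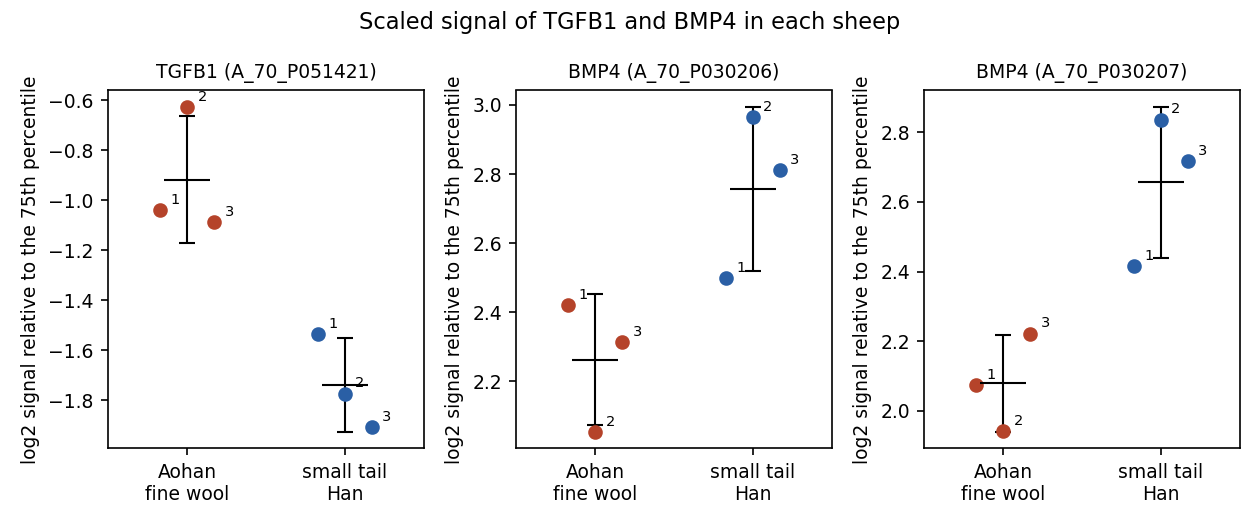
Log2 signal relative to the 75th percentile of the array (vertical axis) for the TGFB1 probe and both BMP4 probes in the 3 Aohan fine wool sheep (red) and the 3 small tail Han sheep (blue), numbered by animal. Long bars are means and whiskers SD (n = 3). The breeds do not overlap at any of the 3 probes, with Aohan higher for TGFB1 and lower for BMP4. Of all tested probes, 34.2% did not overlap either, and neither BMP4 probe passed the adjusted threshold.

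BMP4 leaned the other way at both probes, but neither passed the adjusted threshold. At A_70_P030206 the Aohan sheep had 2.42, 2.05 and 2.31, against 2.50, 2.96 and 2.81 in the small tail Han sheep. The breeds did not overlap, but the highest Aohan and the lowest small tail Han value, both of sheep numbered 1, were only 0.077 apart. The means were 2.26 ± 0.19 in Aohan and 2.76 ± 0.24 in small tail Han skin (SD, n = 3 each), a difference of -0.50 (SE 0.18, 95% interval -0.90 to -0.09), or 1.41-fold lower in Aohan skin. The limma p was 0.0230 before and 0.103 after adjustment. Of all tested probes, 29.4% had an unadjusted limma p under 0.05 and 34.2% had breed values that did not overlap.

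At the other BMP4 probe, A_70_P030207, the values were 2.07, 1.94 and 2.22 in Aohan sheep, against 2.42, 2.84 and 2.72 in small tail Han sheep. Here the gap between the breeds was 0.19, and Aohan sheep 2 was again the lowest of the 6. The means were 2.08 ± 0.14 in Aohan and 2.66 ± 0.22 in small tail Han skin (SD, n = 3 each). The difference was -0.58 (SE 0.17, 95% interval -0.96 to -0.20), or 1.49-fold lower in Aohan skin, with a limma p of 0.00774 before and 0.0506 after adjustment. Both probes cover the same mRNA, so they repeat 1 measurement on the same RNA and add no animals. Their values ran together over the 6 arrays (Pearson r = 0.958, a description, since the arrays share their scaling and breeds). Among all tested probes, 67.3% and 73.3% had a smaller difference than A_70_P030206 and A_70_P030207. A lower limma p was found for 22.4% and 15.3% of them.

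The adjusted p of BMP4 crossed 0.05 under some processing choices. A_70_P030206 passed after quantile normalization (-0.41, adjusted p = 0.0457) and on the normalized values that the authors deposited (-0.38, adjusted p = 0.0410). A_70_P030207 passed on the same 2 sets (-0.48, adjusted p = 0.0271, and -0.44, adjusted p = 0.0256). Over the whole array 2115 and 2087 probes passed on these sets, against 1893 with the reported scaling. Without small tail Han sheep 1, whose BMP4 was the lowest of its breed, both probes passed. The differences were -0.62 (adjusted p = 0.0481) for A_70_P030206 and -0.70 (adjusted p = 0.0259) for A_70_P030207, and 2248 probes passed over the whole array. This was the only 1 of the 6 fits leaving out an animal in which either probe passed. The limma adjusted p rose to 0.341 and 0.216 without small tail Han sheep 2. After normexp background correction neither probe passed, at -0.40 for the first and -0.34 for the second. The sign was negative for both probes in all 16 alternatives, though other filters or models and leaving out 1 animal could not have reversed it.

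**Figure D2:**
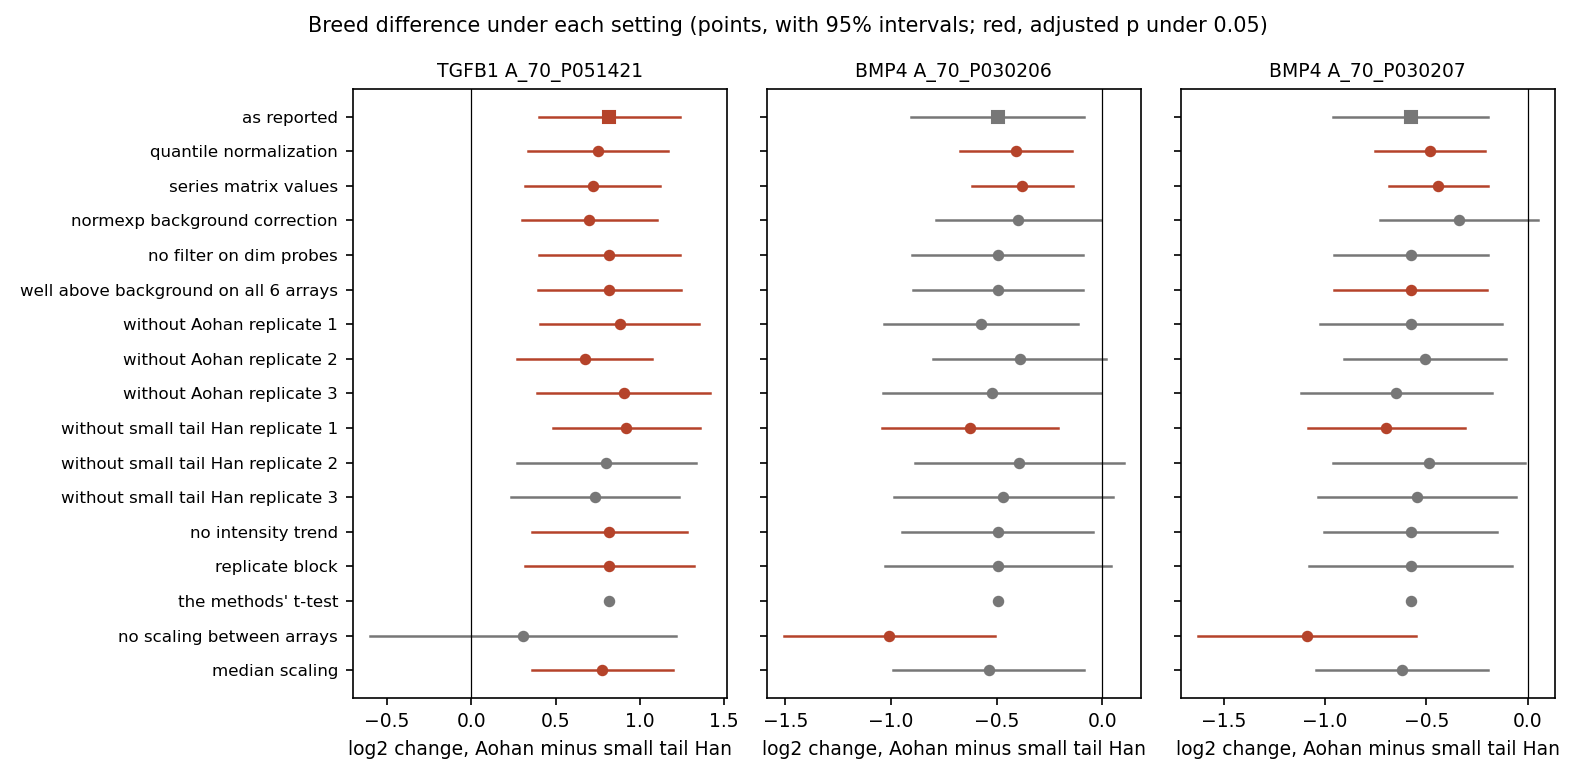
Breed difference (horizontal axis, log2, Aohan minus small tail Han) of each TGFB1 and BMP4 probe under the reported setting (square) and 16 alternatives (circles), with 95% intervals where the model gives one; red marks an adjusted p under 0.05. All TGFB1 points lie above 0 and all BMP4 points below it, while 12 of 16 alternatives pass for TGFB1, against 4 and 5 for BMP4.

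The processed intensities before scaling show what the scaling did to these values. The 75th percentile of the array was 1103, 2048 and 1131 in Aohan sheep 1, 2 and 3, against 2309, 1837 and 1747 in small tail Han sheep, so Aohan arrays 1 and 3 were the dimmest. TGFB1 had intensities of 536, 1326 and 532 in Aohan sheep, against 797, 537 and 466 in small tail Han sheep. Before scaling the breeds therefore overlapped for TGFB1, with only Aohan sheep 2 above every small tail Han sheep, and the difference was 0.31 (adjusted p = 0.623).

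For BMP4 at A_70_P030206, intensities were 5908, 8502 and 5616 in Aohan sheep, against 13051, 14332 and 12258 in small tail Han sheep. At A_70_P030207 they were 4643, 7875 and 5273 in Aohan sheep, against 12327, 13113 and 11487 in small tail Han sheep. Unlike TGFB1, BMP4 was separated before scaling, and further than after it: the unscaled differences were -1.01 (adjusted p = 0.0141) and -1.09 (adjusted p = 0.0139). Without scaling the median over all tested probes was itself -0.49. Relative to that median, TGFB1 stood at 0.79 and BMP4 at -0.52 and -0.60, close to the scaled differences.

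**Figure D3:**
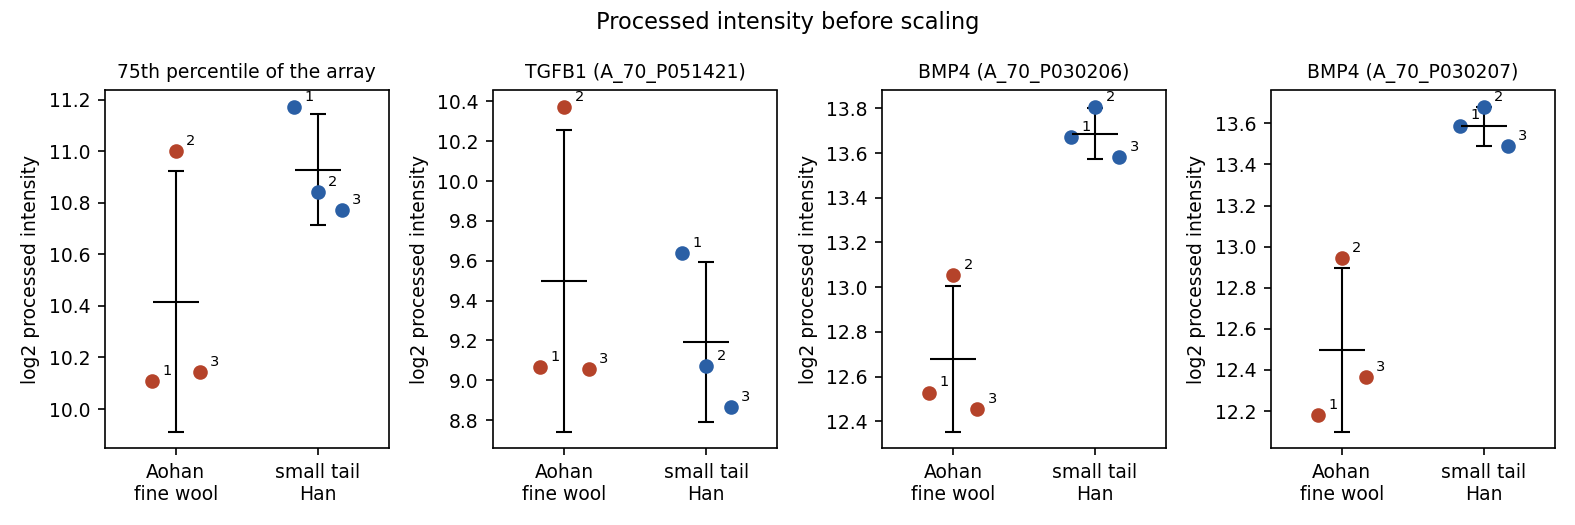
Log2 processed intensity before any scaling between arrays (vertical axis; each panel has its own range) for the 75th percentile of the array, TGFB1 and both BMP4 probes in 3 Aohan fine wool sheep (red) and 3 small tail Han sheep (blue), with mean and SD bars (n = 3). Aohan arrays 1 and 3 are the dimmest; the breeds overlap for TGFB1 but not for BMP4.

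The balance of the 2 genes within an array does not depend on a constant used to scale that array. The difference of log2 intensities, TGFB1 minus the mean of both BMP4 probes, was -3.29, -2.63 and -3.36 in Aohan sheep, against -3.99, -4.67 and -4.67 in small tail Han sheep. Since each probe has its own binding strength, the size of this value does not tell which transcript was more abundant, and only the comparison between animals can be read. All 3 Aohan sheep lay above all 3 small tail Han sheep, with a gap of 0.64. This order follows from the scaled values, where TGFB1 was higher and BMP4 lower without overlap, and is no separate result. The mean was -3.09 ± 0.40 in Aohan and -4.45 ± 0.39 in small tail Han skin (SD, n = 3 each), so TGFB1 relative to BMP4 was 2.56-fold higher in Aohan skin, a log2 difference of 1.36. It was 2.49-fold against A_70_P030206 alone and 2.63-fold against A_70_P030207 alone.

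This ratio was chosen after the values of both genes had been seen, and those values fixed its separation between the breeds and its permutation p. A two-sided exact permutation test gave p = 0.1 for it and for each of the 3 probes (0.1 after adjustment over the 4 tests), which is the smallest p that 3 against 3 animals allow. Leaving out 1 animal at a time gave log2 differences between 1.12 and 1.58. The ratio of the 2 BMP4 probes to each other overlapped between the breeds, at 0.18 ± 0.14 in Aohan and 0.10 ± 0.02 in small tail Han skin (log2, SD, n = 3 each).

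**Figure D4:**
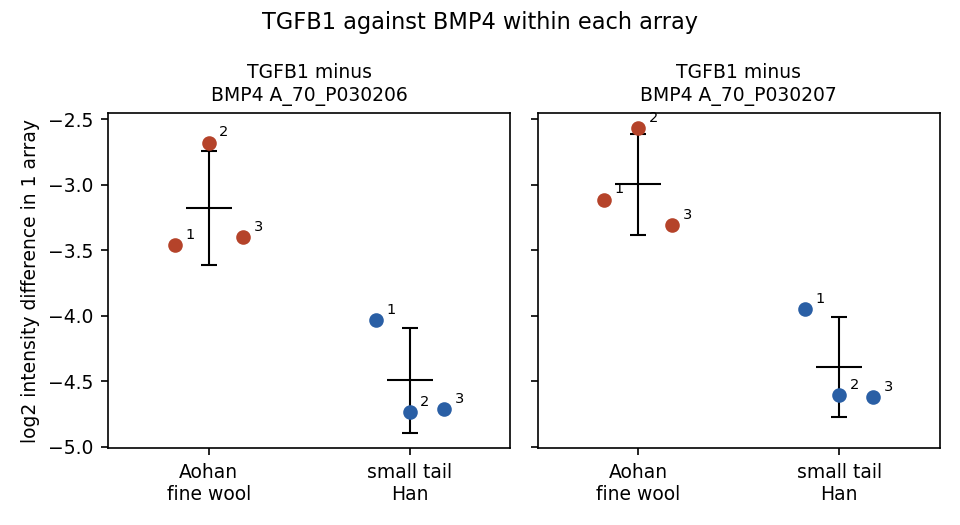
Difference of log2 intensities of TGFB1 and BMP4 on the same array (vertical axis), against A_70_P030206 (left panel) and A_70_P030207 (right panel), in 3 Aohan fine wool sheep (red) and 3 small tail Han sheep (blue), with mean and SD bars (n = 3). In both panels every Aohan sheep lies above every small tail Han sheep, which follows from the separation of each gene after scaling.

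Around the 2 genes, 127 further genes of the pathway and of follicle growth control were listed by role. Of these, 27 had a RefSeq-named probe and 23 were tested, each at its brightest probe. In Aohan skin 2 of the 23 were higher and 0 were lower by limma (2 and 0 also at an unadjusted p under 0.05), which is 8.70% under either rule, against 15.2% of all tested probes with adjustment and 29.4% without it. The breeds did not overlap for 7 of the 23 (30.4%, against 34.2% of all tested probes), and the median log2 difference over the 23 was 0.15, against 0.02 over all tested probes. The methods' t-test called 0 of the 23 after adjustment and 4 before it, against 5.71% and 25.9% of all tested probes. The lists were not tested against the array as a whole.

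Among other ligands of the superfamily, 2 of 3 genes on the array were tested and neither passed, beside 15.2% of all tested probes that did. MSTN, which encodes myostatin, differed by -0.31 (adjusted p = 0.533), and INHBA, which encodes the activin beta A chain, by 0.23 and 0.28 at its probes (adjusted p = 0.506 and 0.403). BMP15, an oocyte factor, did not reach well above background on any array.

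Receptors gave the first of the 2 calls. ACVR2A encodes a type II receptor that binds activins and several BMPs, though not TGF-β1. At its brightest probe, A_70_P051216, it had 0.41, 0.20 and 0.03 in Aohan sheep, against -0.53, -0.20 and -0.54 in small tail Han sheep. The breeds did not overlap, and the log2 difference was 0.64 (SE 0.17, limma adjusted p = 0.0357). Its dim second probe, A_70_P051217, overlapped between the breeds and gave 0.35 (adjusted p = 0.604). The call was lost on leaving out any 1 of the 6 animals (adjusted p of 0.0612 to 0.137). BMPR1B, a type I receptor for BMPs, overlapped between the breeds, with a difference of 0.16 (adjusted p = 0.653). No SMAD had a RefSeq-named probe, so the step below the receptors was not analysed here.

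Inhibitors and matrix binders gave no call among 4 tested genes, beside 15.2% of all tested probes, with a median log2 difference of 0.14. NOG, which encodes noggin, an antagonist that binds BMP4, was well above background on 4 arrays at A_70_P068157 and on 3 at A_70_P068156. Its differences there were 0.49 (adjusted p = 0.579) and 0.35 (adjusted p = 0.587), and the breeds overlapped at both. BAMBI, a pseudoreceptor that dampens TGF-β and BMP signals, gave 0.11 (adjusted p = 0.660) at its brightest probe and -0.52 (adjusted p = 0.140) at the other. DCN and BGN, proteoglycans that bind TGF-β1, differed by -0.08 and 0.16 at their brightest probes.

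Activators of latent TGF-β1 gave the second call, ITGB1. The breeds did not overlap at the brightest probe of 4 of the 5 tested genes, with ITGB1, ITGAV and PLAU higher and MMP2 lower in Aohan skin, beside 34.2% of all tested probes. ITGB1, the integrin beta 1 chain, pairs with many alpha chains, ITGAV among them, and is in most cells. It had -2.71, -1.91 and -2.47 in Aohan sheep, against -3.20, -4.65 and -4.40 in small tail Han sheep. All Aohan values were higher, but small tail Han sheep 1 stood well above the other 2 of its breed. The log2 difference was 1.72 (SE 0.38, limma adjusted p = 0.0180), and the call was lost without Aohan sheep 2 (adjusted p = 0.0555) or 3 (0.0525), or without small tail Han sheep 2 (0.0690) or 3 (0.0646).

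The other activators stayed below the threshold. ITGAV, the integrin alpha v chain, had 0.33 and 0.40 at its 2 probes (adjusted p = 0.184 and 0.137), and PLAU, a plasminogen activator, had 0.36 (adjusted p = 0.393). MMP2 and MMP14, matrix metalloproteinases, had -0.18 and -0.17 at their brightest probes, and the protease gene FURIN did not reach well above background on any of them.

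Among genes that TGF-β1 is known to regulate, none of 4 tested passed by limma (0 also at an unadjusted p under 0.05, and 0 by the methods' t-test). They went in both directions, with a median difference of -0.16. All 4 overlapped between the breeds at their brightest probe. Of all tested probes, 15.2% passed by limma, 29.4% had an unadjusted p under 0.05 and 34.2% did not overlap. With only 4 genes, counts of 0 cannot be set apart from those shares. The metalloproteinase inhibitors TIMP1 and TIMP3 had 0.15 and -0.09, SPP1, or osteopontin, had -0.52, and MYC, which TGF-β1 represses in many cells, had -0.22.

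Of the growth factors of follicle cycling, 0 of 6 tested genes passed at their brightest probe, beside 15.2% of all tested probes. FGF2 gave 0.40 there (adjusted p = 0.258). Its other probe, A_70_P039492, had -3.55, -3.50 and -3.49 in Aohan sheep, against -4.34, -4.76 and -4.23 in small tail Han sheep, a difference of 0.93 (adjusted p = 0.0253); it was named after its values were seen. FGF7, a fibroblast factor that acts on epithelium, had 0.02, FGF10 0.56, IGF1 0.09, the growth hormone receptor gene GHR 0.46, and IGFBP5, which binds insulin-like growth factors, -0.46 and -0.34 at its probes.

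**Figure D5:**
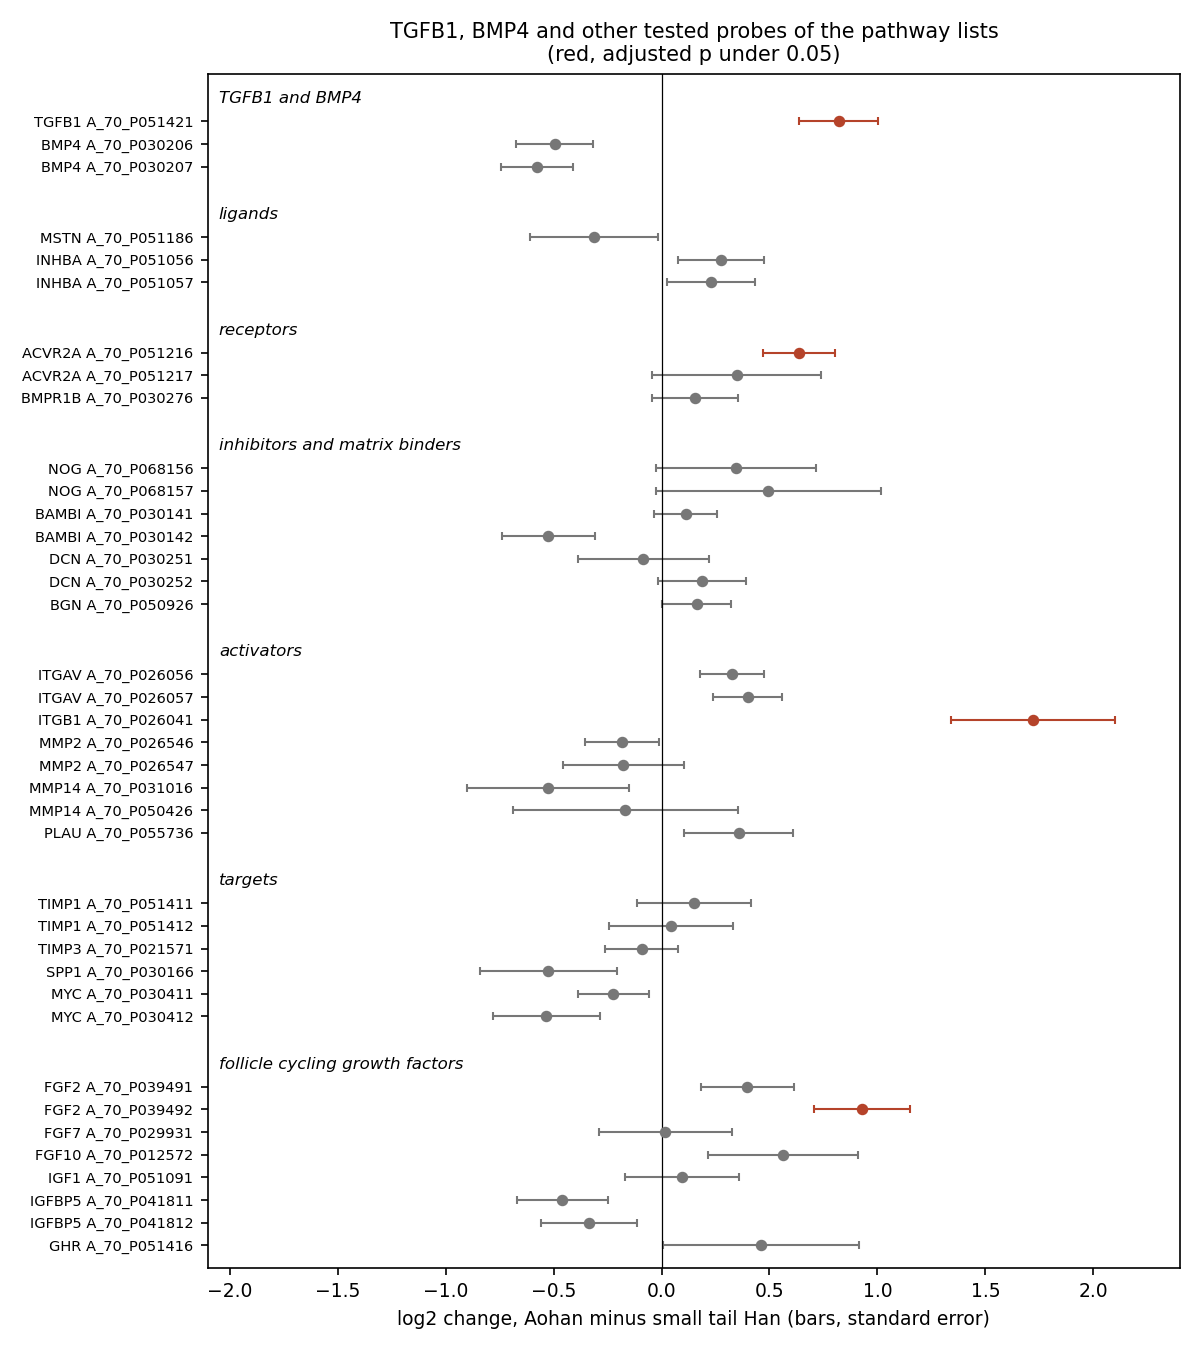
Breed difference (horizontal axis, log2, Aohan minus small tail Han; bars, SE from limma) of the TGFB1 and BMP4 probes and of every tested probe of the pathway lists, grouped by role; red marks an adjusted p under 0.05. Outside TGFB1, only ACVR2A at its brightest probe, ITGB1 and the dimmer FGF2 probe are red, and no probe of the lists passes on the lower side. Of all tested probes, 15.2% passed, 7.57% higher and 7.6% lower in Aohan skin.

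The genes most like TGFB1 and BMP4 over the 6 arrays were sought among 366 RefSeq-named genes that were well above background on every array. Nearest to TGFB1 were PTGFR, a prostaglandin F receptor (Pearson r = 0.992), GJB2, the gap junction protein connexin 26 (r = 0.992), and YEATS4, a reader of acetylated histones (r = 0.990). These 3 differed by 0.88, 0.80 and 1.55 between the breeds. Nearest to A_70_P030206 were LOC654331 (r = 0.994), the calpain gene CAPN2 (r = 0.987) and the lysophosphatidic acid receptor gene LPAR1 (r = 0.979). To A_70_P030207 they were STAR, which moves cholesterol into mitochondria (r = 0.994), the desaturase gene SCD5 (r = 0.984) and the chemokine gene CXCL1 (r = 0.979). The 2 BMP4 probes shared none of their 3 nearest genes. With 6 points in 2 breeds, such values describe the ranking only.

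Whole skin holds many cell types, and some of their markers differed between the breeds in the direction of TGFB1. Of the T cell markers, CD3D, CD3E and LCK were tested. CD3D and CD3E were higher in Aohan skin, by 0.92 (limma adjusted p = 0.0362) and 1.11 (adjusted p = 0.0135), and LCK differed by 0.34 (adjusted p = 0.285). CD3D's second probe, A_70_P039312, did not pass (0.73, adjusted p = 0.0880). The log2 of their summed signal was 2.70 to 2.99 in Aohan sheep, against 1.41 to 2.27 in small tail Han sheep, while CD4 was well above background on no more than 1 array. Of 4 tested myeloid markers, only ITGB2, the leukocyte integrin beta 2 chain, passed, higher by 0.95 (limma adjusted p = 0.0108). FCGR1A (0.55, adjusted p = 0.106), ITGAM (0.88, adjusted p = 0.377) and CD14 (0.19, adjusted p = 0.721) did not, and CD14 gave -0.31 at its other probe. The summed level, which includes ITGB2, was 0.30 to 0.68 in Aohan sheep, against -0.23 to -0.09 in small tail Han sheep. Many blood cells make TGF-β1, and their part in the TGFB1 difference was not tested. At the brightest probe of each marker, the methods' t-test called 0 of the 3 T cell, 4 myeloid and 1 smooth muscle markers tested after adjustment. Before adjustment it called 2, 2 and 1 of them. Over all tested probes it called 5.71% after and 25.9% before adjustment, and limma called 15.2% after it.

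Of the tested markers of the tissue compartments, only CNN1 passed by limma, beside 15.2% of all tested probes. Every compartment but the wool follicle rested on 1 tested gene. The wool follicle keratin genes KRT25, KRT27 and KRT35 overlapped between the breeds (median difference -0.06), with a summed level of 8.77 to 9.68 in Aohan sheep, against 9.04 to 9.56 in small tail Han sheep. The keratinocyte marker SFN (0.07), the fibroblast marker DCN (-0.08) and the sebocyte marker PPARG (0.04) lay near 0. The smooth muscle marker CNN1, or calponin, was lower, at 4.59, 3.85 and 4.46 in Aohan sheep, against 5.36, 5.65 and 5.83 in small tail Han sheep, a difference of -1.31 (adjusted p = 0.0094). Its direction was that of the BMP4 difference, and the part of smooth muscle in it was not tested. The melanocyte marker TYR (-0.68, adjusted p = 0.0511), the endothelial marker SELE (-0.39, adjusted p = 0.229) and the red cell marker HBB (-0.83, adjusted p = 0.171) did not pass.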

How the data were processed

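Per the file headers, the authors used Agilent Feature Extraction 10.5.1.1 to read each image, giving a background-subtracted Cy3 intensity per spot; no normalization between arrays had been applied to these deposited values. The authors also deposited log2 values normalized between arrays, whose method is not given in the sources used here.

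After removal of control spots and outlier-marked spots, processed intensities were put on the log2 scale, averaged per probe and set relative to the array's 75th percentile over probes. A probe was tested if at least 3 of the 6 arrays had it well above background and each breed had at least 2 values (12480 of 15008). Breed differences were fitted in limma 3.58.1 (R 4.3.3; lmFit, then eBayes with a trend over mean signal), and two-sided p-values were adjusted over every tested probe by Benjamini-Hochberg, with a threshold of 0.05. The script was checked on simulated data. The number of arrays limits the precision. Sex was no covariate, since it is not given per animal.

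Names came from RefSeq accessions through assembly ARS-UI_Ramb_v3.0 (734 of 758 probes matched); the array's genome build is not given in the sources used here, so no coordinates are printed. Named were TGFB1 and BMP4, list genes that passed, receptors, and the 3 genes most like each probe; other list genes illustrate their list. Marker lists of B cells and platelets had no RefSeq-named probe. The result of 1 gene of the lists is not reported here, and it was left out of their counts. The genes and lists were chosen with earlier results of these data known. Alternatives were other normalizations, normexp (offset 50, on median spot signals), other filters, each animal left out, no intensity trend, the replicate block and the methods' t-test; no scaling, median scaling and the within-array ratio were added after seeing the data.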

Additional observations from a re-analysis of the deposited data

How the results depend on the processing

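TGFB1 kept its sign in all 16 alternatives and passed in 12; besides leaving out small tail Han sheep 2 or 3, it missed under the methods' t-test (0.82, adjusted p = 0.0915) and no scaling (0.31), and ranged from 0.67 to 0.92 with 1 animal left out. BMP4 kept its sign in all 16: A_70_P030206 passed under quantile normalization (-0.41), the deposited normalized values (-0.38) and no scaling (-1.01), with -0.62 to -0.39 on leaving out an animal; A_70_P030207 passed under the same settings (-0.48, -0.44, -1.09) and with the stricter filter on all 6 arrays (-0.58, adjusted p = 0.0437), with -0.70 to -0.49. With an animal left out, each BMP4 probe passed in 1 of 6 fits. The within-array ratio gave 1.07 to 1.58 over 9 alternatives. ACVR2A passed in 5 of 16 and ITGB1 in 10 of 16 alternatives, with no change of sign. Other filters and models keep the estimate, and leaving out 1 animal cannot reverse breeds that do not overlap. Only the other normalizations, normexp and no scaling could have changed a sign.

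The count over all probes, 1893, became 712 under the methods' t-test and 788 to 2248 with 1 animal left out (1058 without Aohan sheep 3, 788 and 943 without small tail Han sheep 2 and 3). Without scaling, 3.76% of the probes called were higher in Aohan skin (83 higher, 2123 lower), against 49.9%. The pathway count of 2 became 1 without an intensity trend, without scaling and under median scaling. Without scaling that 1 gene was neither ACVR2A (limma adjusted p = 0.811) nor ITGB1 (0.171). The count was 0 under the methods' t-test, 0 to 1 with 1 animal left out, and 3 at each gene's probe of smallest p.

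The replicate numbers were not taken to pair the animals. Each animal's deviations from its breed mean were correlated across breeds over the tested probes. Same-numbered animals gave -0.22, -0.37 and 0.28, and Aohan sheep 2 correlated best with small tail Han sheep 1 (0.47). Deviations within a breed balance each other, so these correlations are not independent and cannot settle whether the numbers pair animals. With the replicate block 1234 probes and 1 pathway gene passed, and TGFB1 had an adjusted p of 0.0483. The cause of these shifts was not tested.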
